A study of Mus musculus with 45 samples.

Results

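Immediate early genes are genes that a resting cell switches on within minutes of a signal, from promoters that are already open, without first making new protein. The set described here held 10 immediate early and AP-1 genes, named as a list: the AP-1 genes Fos, Fosb, Jun, Junb and Jund, the transcription factor genes Egr1 and Nr4a1, the early response gene Ier2, and the feedback genes Dusp1 and Zfp36. All 10 were found by symbol among the 24333 genes of a table of chromatin accessibility in mouse erythroblasts. The members were chosen with earlier results of these data known, and their values are read below against those of all genes tested.

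The series compared mice with an intact Stag2 gene (Stag2 WT) and with the gene deleted (Stag2 KO). The Stag2 protein is part of cohesin, a ring of proteins that extrudes loops of chromatin. Ter119+ erythroblasts, red cell precursors sorted by a surface protein of that lineage, were profiled as single nuclei by ATAC, which counts DNA fragments cut from open chromatin, in 3 WT and 3 KO libraries out of 45 samples in the series. Cells of both genotypes were taken once 6 to 8 weeks had passed since pIpC, the compound given to induce the deletion. The driver of the deletion, the allele, the age and the sex of the mice are not given in the sources used here, and the labels do not say that each library came from a separate mouse, so p-values measure only the spread between these libraries.

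AP-1 is a dimer of a Fos family and a Jun family protein, or of a pair of Jun proteins, that binds DNA through a leucine zipper. Growth factor, stress and cytokine signals reach these genes through MAP kinases, serum response factor and CREB, and Dusp1 and Zfp36 then end the response by removing phosphate from MAP kinases and by destabilising short-lived mRNAs. In blood formation AP-1 and Egr1 are best known from stem cells, myeloid cells and megakaryocytes, and erythroid genes are opened chiefly by Gata1 and Klf1.

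The upstream sequences of 5 members are shown because the members divided in the comparison of genotypes below: Fos, Fosb and Zfp36 scored higher in KO, and Jun and Dusp1 did not. Each is the 250 bases before the RefSeq start site on GRCm38.p6, read on the strand of the gene from 5′ to 3′. They lie at chr12:85473640-85473889 (Fos, plus strand), chr7:19310046-19310295 (Fosb, minus strand), chr7:28379229-28379478 (Zfp36, minus strand), chr4:95052223-95052472 (Jun, minus strand) and chr17:26508473-26508722 (Dusp1, minus strand). Capitals mark matches to the motifs searched on both strands.
Fos: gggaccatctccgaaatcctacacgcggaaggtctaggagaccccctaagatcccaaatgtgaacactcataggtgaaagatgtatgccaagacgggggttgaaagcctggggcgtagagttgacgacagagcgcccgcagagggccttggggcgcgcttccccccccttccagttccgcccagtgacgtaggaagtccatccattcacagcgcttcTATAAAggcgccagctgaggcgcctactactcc
Fosb: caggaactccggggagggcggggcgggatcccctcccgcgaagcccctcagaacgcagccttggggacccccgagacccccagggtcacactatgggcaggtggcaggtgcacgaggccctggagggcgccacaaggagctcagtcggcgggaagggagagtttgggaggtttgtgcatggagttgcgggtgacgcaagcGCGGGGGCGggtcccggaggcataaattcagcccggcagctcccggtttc
Zfp36: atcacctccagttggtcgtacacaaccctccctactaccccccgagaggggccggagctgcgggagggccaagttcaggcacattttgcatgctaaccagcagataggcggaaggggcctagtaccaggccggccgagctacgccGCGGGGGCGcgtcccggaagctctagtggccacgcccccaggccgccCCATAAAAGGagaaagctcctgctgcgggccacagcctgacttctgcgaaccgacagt
Jun: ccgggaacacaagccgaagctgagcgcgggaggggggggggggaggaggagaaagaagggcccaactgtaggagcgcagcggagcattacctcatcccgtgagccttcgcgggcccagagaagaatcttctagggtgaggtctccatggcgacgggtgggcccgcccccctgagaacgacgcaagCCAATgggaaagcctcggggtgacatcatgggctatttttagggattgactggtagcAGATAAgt
Dusp1: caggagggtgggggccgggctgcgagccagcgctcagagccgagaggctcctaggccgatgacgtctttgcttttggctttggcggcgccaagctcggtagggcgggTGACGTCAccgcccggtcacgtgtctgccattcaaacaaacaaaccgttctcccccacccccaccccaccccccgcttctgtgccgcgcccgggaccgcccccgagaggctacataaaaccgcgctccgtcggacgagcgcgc

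The motifs were the cAMP response element (TGACGTCA), the AP-1 site (TGANTCA), the CArG box bound by serum response factor, the EGR site (GCGNGGGCG), the GATA site (AGATAA), the CCAAT box (CCAAT) and the TATA box (TATAAA), and none of the matches in capitals overlapped another. The capitals in Fos are a TATA box at bases -33 to -28 before the start site. Fosb held an EGR site at -50 to -42. Zfp36 held an EGR site at -105 to -97 and a CArG box at -58 to -49. Jun held a CCAAT box at -65 to -61 and a GATA site at -8 to -3, and Dusp1 held a cAMP response element at -143 to -136.

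Upstream sequences were available and searched for 8 members, and not for Egr1 and Ier2. EGR sites were found in 3 of the 8 (Fosb, Zfp36 and Nr4a1), against 4.70% of 32851 promoters of the same length. A CArG box was found in 1 of 8 against 1.47%, a cAMP response element in 1 of 8 against 1.55%, and an AP-1 site in 0 of 8 against 6.75%. CCAAT boxes were found in 2 of 8 (Jun and Junb) against 33.85%, and a TATA box and a GATA site in 1 of 8 each against 12.4% and 9.99%. A match describes these letters in this window and not the binding of a factor. Variants of a motif were not counted, such as tgacatca in the Jun sequence and tgacgtag in that of Fos.

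The measure was the gene score, a signal the authors computed per nucleus from the ATAC fragments around each gene and scaled to a fixed sum. It measures accessibility, not expression, and neighbouring genes can share fragments. Scores were averaged over the nuclei of each library and are given on a scale where all genes of a library sum to 1000000. The authors had placed each nucleus in a class (Early, Int or Late) and in a cluster (C1 to C11). What they used to place nuclei is not given in the sources used here, and Int is read as intermediate. The WT libraries held 5819 to 6990 nuclei and the KO libraries 4617 to 4925, of which 2236 to 3999 and 2043 to 2401 were Int and 2971 to 4527 and 2176 to 2549 were Late. Median fragments per Int nucleus were 10121 to 12877 in WT and 13911 to 14998 in KO, and per Late nucleus 5693 to 6812 and 6043 to 6504. Of the barcodes, 725 occurred in more than 1 library (1478 of 34073 nuclei).

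The sort was checked on its markers. The summed score of 12 erythroid markers found in the table was 2846 to 2942 in Late WT libraries and 2461 to 2570 in Late KO libraries. By the test used below, 10 of the 12 were lower in Late KO nuclei, as were 18.5% of all genes. Over the same nuclei the summed scores of stem and progenitor markers were 63.8 to 71.6 in WT and 105 to 112 in KO, those of myeloid markers 85.1 to 93.9 and 105 to 109, those of lymphoid markers 79.7 to 88.9 and 99.7 to 105, and those of megakaryocyte markers 261 to 303 and 290.0 to 306. In Int nuclei the erythroid sums were 2282 to 2522 in WT and 2106 to 2257 in KO. There 7 of the 12 were lower, as were 7.10% of all genes. The stem and progenitor sums of Int were 110.0 to 146 and 166.5 to 185, and the myeloid sums 90.4 to 109.8 and 123 to 132. The lymphoid sums were 111 to 132.9 and 132.9 to 149.0, and the megakaryocyte sums 287 to 322.7 and 322.6 to 339. None of the markers was at 0. In Late, 7 of 8 stem and progenitor markers tested were higher, 4 of 9 myeloid and 2 of 6 lymphoid, beside 32.9% of all genes. In Int the counts were 2 of 10, 3 of 11 and 0 of 9, beside 12.7%. Of the megakaryocyte markers tested, 2 of 5 were higher and 2 lower in Late, and 1 of 6 higher and 2 lower in Int. The median share of fragments in peaks was also lower in Late KO nuclei, at 60.3% to 61.8% against 64.1% to 66.4% in WT. The megakaryocyte sums overlapped between the genotypes, and the lymphoid sums of Int met. The other sums and the share in peaks were apart, and their part in the members' differences was not tested. The score of Stag2 itself was 57.6 to 62.0 in Int WT libraries and 58.5 to 61.3 in Int KO libraries (log2 fold change -0.0080, adjusted p = 0.934, limma), but a score over the whole locus does not check a deletion within it.

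The first comparison asked whether accessibility at these genes differed between Stag2 KO and WT erythroblasts of 1 class. It passed the test for 6 of 10 members in Int and 7 of 10 in Late, beside 3858 of 19465 and 8161 of 15886 of all genes tested. The AP-1 genes did not move together: both Fos genes rose in KO by 1.58 to 1.77 times, Junb rose slightly, Jun fell in Int nuclei, and Jund did not pass the test. Egr1, Zfp36 and, in Late nuclei, Nr4a1 rose as well, while Dusp1 fell slightly in Late nuclei and Ier2 did not pass. Differences were tested with limma on log2(score + 1), with p-values adjusted by Benjamini-Hochberg over all genes tested and a threshold of 0.05.

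In Int nuclei 5 of 10 members were higher in KO and 1 was lower, where 12.7% of 19465 genes tested were higher and 7.10% were lower. In Late nuclei 6 members were higher and 1 was lower, against 32.9% and 18.5% of 15886 genes. Over all nuclei 6 were higher and 0 were lower, against 29.1% and 14.2% of 17682 genes. Those nuclei included the Early class, which made up 1.49%, 4.04% and 0.286% of WT replicates 1 to 3 and 6.38%, 0.541% and 0.325% of KO. In Early nuclei of libraries with at least 50, Fos scored 154 to 158 in WT and 188 in KO, and Jun 151 to 155.5 and 121. The part of Early nuclei in the differences over all nuclei was not tested. Jun and Dusp1 were both lower over all nuclei under median centring (-0.42 and -0.26), in matched nuclei (-0.42 and -0.11) and with Int and Late at equal weight (-0.36 and -0.12), and Junb no longer passed under median centring. Nr4a1 no longer passed over all nuclei under quantile normalization (0.13, adjusted p = 0.209), under cyclic loess (0.15, adjusted p = 0.160) or with nuclei weighted by fragments (0.38, adjusted p = 0.126), beside 0.40 as scaled here. The genotypes were apart, with no overlap of libraries, for 7 members in Int and 7 in Late, and for 37.3% and 59.5% of all genes. The median log2 fold change of the members was 0.31 in Int and 0.29 in Late, and that of all genes 0.06 and 0.05.

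How many of all genes went up depended on the scaling. Of the genes called in Int, 64.2% were higher in KO as scaled here, 50.7% after quantile normalization and 24.4% after centring on the median. The corresponding shares were 64.0%, 46.5% and 47.9% in Late, where cyclic loess gave 52.5%, and 67.15%, 46.9%, 35.4% and, with cyclic loess, 54.0% over all nuclei. Change also went with the level of a gene: 8 members lay in the highest quartile of Int scores, where 7.38% of genes were higher in KO and 17.8% lower and the median log2 fold change was -0.06. Fosb, Junb, Jund, Egr1, Ier2 and Dusp1 lay in the highest quartile of Late scores too, where 10.1% of genes were higher and 32.75% lower.

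**Figure D1:**
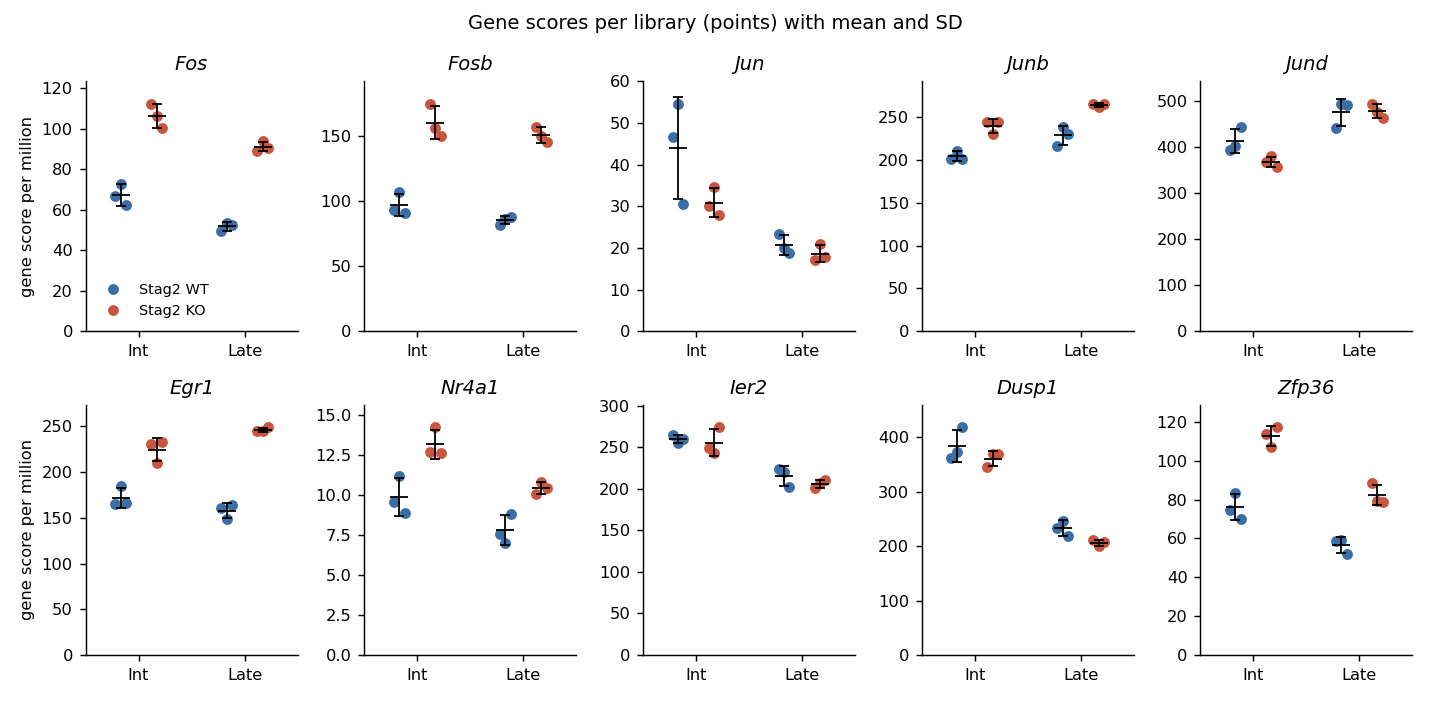
Gene scores (genes of a library sum to 1000000) of the 10 genes in Int and Late nuclei. Each point is 1 library, the bars give the mean and SD of 3 libraries, and every vertical axis starts at 0. For Fos, Fosb, Egr1, Zfp36, Junb and Nr4a1 all KO points lie above all WT points in both classes, and Jun is spread widest among the WT libraries of Int.

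Fos encodes the founding AP-1 subunit, which can act only as a dimer with another bZIP protein such as Jun. Its gene lies at chr12:85473901-85477269. In Int nuclei its gene score was 66.55, 72.7 and 62.3 in the WT libraries (here and below in the order of replicates 1, 2 and 3) and 112, 106 and 100.4 in the KO libraries. In Late nuclei the scores were 49.4, 53.3 and 52.45 in WT and 89.1, 93.8 and 90.4 in KO. Every KO library was above every WT library in both classes, and even the KO libraries of Late nuclei, where Fos was lower, were above the WT libraries of Int. The log2 fold change was 0.65 ± 0.06 (SE) in Int (adjusted p = 1.66e-09, limma) and 0.81 ± 0.05 in Late (adjusted p = 5.07e-08). Such small p-values rest on the variance trend, and without it they were 0.00574 and 7.15e-05 (adjusted, limma). Only 2.16% of genes tested in Int and 3.01% of those in Late had a higher change than Fos.

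Fosb, a paralog of Fos with the same dimer partners, gave nearly the same picture. At chr7:19302696-19310045, it scored 92.6, 106.5 and 90.9 in the Int nuclei of WT replicates 1 to 3 and 174, 156 and 149.8 in those of KO. In Late nuclei the values were 81.6, 86.3 and 87.7 against 157, 149.6 and 145. The genotypes did not overlap in either class, and the log2 fold change was 0.72 ± 0.06 (SE) in Int (adjusted p = 6.97e-10, limma) and 0.81 ± 0.05 in Late (adjusted p = 2.48e-08). Across the 12 values of 6 libraries in Int and Late, Fos and Fosb followed each other with a Pearson r of 0.97, a description over libraries that share genotype and class.

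Jun, the partner that Fos is best known for, went the other way and only in part. At chr4:95049036-95052222, its Int scores were 46.5, 54.6 and 30.6 in WT and 29.99, 34.7 and 28.0 in KO. WT replicate 3 lay among the KO libraries, so the groups overlapped although the mean was lower in KO (30.9 ± 3.41 against 43.9 ± 12.2, SD, n = 3). The log2 fold change was -0.46 ± 0.12 (SE; adjusted p = 0.00829, limma). It no longer passed without a variance trend (adjusted p = 0.194) or without WT replicate 1 (-0.40, adjusted p = 0.0619), and with 1 library left out it ranged from -0.29 without WT replicate 2 to -0.69 without WT replicate 3. In Late nuclei Jun scored 23.25, 20.03 and 18.75 in WT and 17.0, 20.85 and 17.85 in KO, which was not past the threshold (-0.15, adjusted p = 0.218) unless scores were quantile normalized (-0.35, adjusted p = 0.0120) or fitted with cyclic loess (-0.31, adjusted p = 0.0233). Over the 12 values Fos and Jun had a Pearson r of 0.09.

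The other Jun genes differed from Jun and from each other. Junb, an AP-1 subunit with weaker activity than Jun on many targets, scored 201, 211 and 202 in Int WT libraries and 245, 231 and 244 in Int KO libraries, and 217, 239 and 231 against 265, 262 and 266 in Late (chr8:84976909-84978748). It rose by 0.23 ± 0.05 on the log2 scale in Int (adjusted p = 0.00175, limma) and 0.21 ± 0.04 in Late (adjusted p = 0.000922), the smallest of the rises that passed. Under median centring the Int difference was 0.05 (adjusted p = 0.787), and without a variance trend it missed the threshold (adjusted p = 0.0551). Jund, the AP-1 gene that resting cells keep active, scored 394, 404 and 443.5 in Int WT libraries and 368, 381 and 358 in Int KO libraries (chr8:70697739-70700616). The groups did not overlap there, but the difference did not pass (-0.16, 95% interval -0.30 to -0.03, adjusted p = 0.0766), except with no filter on low scores (adjusted p = 0.0486), quantile normalization (-0.09, adjusted p = 0.0430) or nuclei weighted by fragments (-0.18, adjusted p = 0.0427). In Late nuclei Jund was at 442, 495 and 492 in WT and 494.5, 476.5 and 465 in KO (0.0083, 95% interval -0.09 to 0.11).

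Egr1, a zinc finger factor that serum response factor switches on, rose in both classes. Its Int scores were 165, 184 and 166 in the WT libraries and 231, 210.3 and 233 in KO (chr18:34861207-34864956). In Late nuclei they were 160.4, 148.5 and 164 against 245.2, 245.0 and 248.9, so the 3 KO libraries lay close together and above every WT library. The log2 fold change was 0.39 ± 0.05 (SE) in Int (adjusted p = 7.12e-06, limma) and 0.64 ± 0.04 in Late (adjusted p = 8.58e-08). Under median centring the Int difference was 0.21 and did not pass (adjusted p = 0.179). Nr4a1, an orphan nuclear receptor, had low scores: 9.60, 11.2 and 8.87 in Int WT libraries, 12.7, 14.2 and 12.6 in Int KO libraries, 7.57, 7.04 and 8.85 in Late WT and 10.05, 10.85 and 10.45 in Late KO (chr15:101266846-101274795). The groups did not overlap in either class. It passed in Late (0.38 ± 0.10, adjusted p = 0.00767, limma), in the quartile of scores where 57.3% of genes were higher, but not after quantile normalization (0.05, adjusted p = 0.715) or cyclic loess (0.07, adjusted p = 0.641). In Int it missed the threshold (0.39 ± 0.14, adjusted p = 0.0603) and passed without WT replicate 2 (0.47, adjusted p = 0.0224), without a variance trend (adjusted p = 0.0492) and in nuclei matched on fragments (0.49, adjusted p = 0.0311).

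The feedback genes went in different directions. Zfp36, which encodes the mRNA decay factor tristetraprolin, scored 74.8, 83.55 and 69.98 in Int WT libraries and 114, 107 and 117 in Int KO libraries (chr7:28376784-28379228). In Late the values were 58.9, 59.3 and 52.1 against 88.3, 79.5 and 78.9. Neither class overlapped, with log2 fold changes of 0.56 ± 0.06 (SE; adjusted p = 3.17e-08, limma) and 0.53 ± 0.06 (adjusted p = 1.59e-05). Dusp1, a phosphatase of MAP kinases, scored 363, 373 and 418 in Int WT libraries and 346, 368.5 and 369 in Int KO libraries (-0.09, adjusted p = 0.363), and 234, 247 and 219 against 211, 200.3 and 207 in Late (chr17:26505591-26508472). The Late groups did not overlap and Dusp1 fell there by 0.18 ± 0.05 (adjusted p = 0.00506, limma), which quantile normalization (-0.12, adjusted p = 0.0588) and cyclic loess (-0.13, adjusted p = 0.0534) no longer called.

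Ier2, a nuclear protein gene of the early response, did not pass in either class. It scored 265, 255 and 259.9 in Int WT libraries and 249.7, 243 and 274 in Int KO libraries, and 224.5, 221 and 202 against 201, 207 and 210.5 in Late (chr8:84661331-84662852). The groups overlapped in both classes. Log2 fold changes were -0.03 (95% interval -0.14 to 0.09) and -0.06 (-0.16 to 0.03), the Int value was 0.05 under quantile normalization and cyclic loess, and the Late value passed under median centring (-0.13, adjusted p = 0.0358) and without WT replicate 3 (-0.11, adjusted p = 0.0398).

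**Figure D2:**
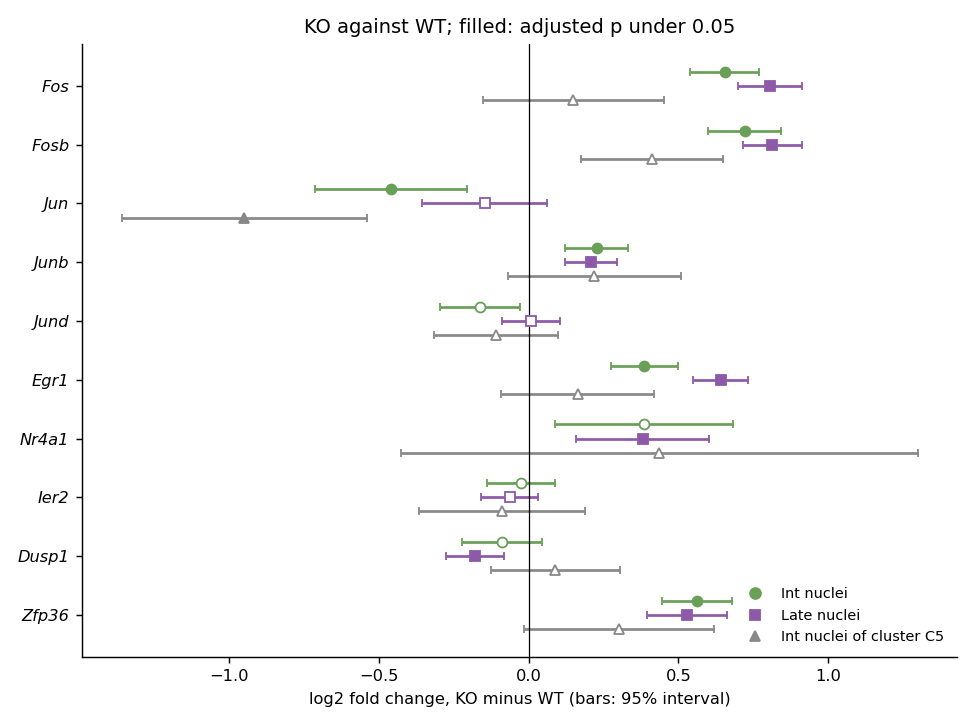
Log2 fold change of KO over WT for each gene in Int nuclei, in Late nuclei and in the Int nuclei of cluster C5 alone, with 95% intervals from limma. Filled symbols have an adjusted p under 0.05: Fos, Fosb, Egr1, Zfp36 and Junb are filled in both classes, and Jun is the filled one in C5, at -0.95.

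A mean score can be higher because more nuclei have any signal at a gene or because those nuclei have more of it. Both were compared in nuclei matched between libraries on class and fragment number, 1834 Int and 2084 Late nuclei per library. Fos was above 0 in 56.5% ± 2.63 (SD, n = 3) of matched Int WT nuclei and 67.6% ± 1.89 of matched Int KO nuclei. In Late nuclei the shares were 29.7% ± 1.59 and 43.4% ± 1.31. The mean score of Late nuclei above 0, per 10000 in a nucleus as deposited, was 1.66 ± 0.014 in WT and 2.09 ± 0.10 in KO, so both the share and the height were apart.

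Fosb, Egr1, Zfp36 and Junb showed the same pair of differences in both classes. How many of all genes had shares or scores above 0 that were apart was not computed. The share of matched Late nuclei above 0 was 37.1% ± 0.91 in WT and 53.9% ± 1.67 in KO for Fosb, and 46.3% ± 1.92 and 59.7% ± 1.59 for Egr1. Their scores above 0 were apart as well, at 2.27 against 2.77 and 3.42 against 4.16. For Nr4a1 only the share was apart, at 6.48% ± 1.17 against 9.61% ± 0.35 in Late, with scores above 0 of 1.15 and 1.09. Jun was the reverse in Int: 38.9% ± 4.01 of WT and 35.8% ± 1.08 of KO matched nuclei were above 0, overlapping, while the score above 0 was 1.16 ± 0.17 in WT and 0.83 ± 0.04 in KO and did not overlap. For Dusp1 in Late the share was apart, at 56.45% ± 2.08 in WT and 51.2% ± 0.77 in KO.

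Whether the KO difference was larger in Late or in Int nuclei was tested on the Late minus Int difference within each library. No member passed, where 0.221% of 15873 genes did, and 2 members (Egr1 and Jund) had an unadjusted p under 0.05, as did 2799 of all genes. For Egr1 the KO log2 fold change was larger in Late by 0.25 ± 0.09 (SE; adjusted p = 0.205, limma), and for Jund by 0.17 ± 0.06 (adjusted p = 0.183). With the variance trend fitted on the mean level, chosen after seeing the data, Egr1 passed (adjusted p = 0.0177) and so did 1017 of all genes. For Fos the difference of 0.15 had a 95% interval from -0.06 to 0.36, and for Jun that of 0.31 ran from -0.10 to 0.73, with 0.12 without WT replicate 2 and 0.48 without WT replicate 3.

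Between classes, most members were less accessible in the later one. No test is given, since the classes may have been drawn from the same accessibility data. Fos, Fosb, Jun, Nr4a1, Ier2, Dusp1 and Zfp36 were lower in Late than in Int in 6 of 6 libraries, as were 41.4% of all genes tested. Junb and Jund were higher in Late in 6 of 6 libraries, as were 29.1%. The mean log2 difference of Jun was -1.02 in WT (SD 0.37) and -0.70 in KO (SD 0.08), and that of Dusp1 -0.72 (SD 0.18) and -0.81 (SD 0.08).

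For 2 members, Egr1 and Jund, these differences did not overlap between genotypes, as for 23.4% of all genes, and for Egr1 they had opposite signs. The Late minus Int difference of Egr1 was -0.04, -0.31 and -0.02 in WT and 0.09, 0.22 and 0.09 in KO. Such a pattern, lower in Late in every WT library and higher in every KO library, was found in 0.561% of genes. WT replicates 1 and 3 were close to 0. For Jund the differences were 0.17, 0.29 and 0.15 in WT and 0.43, 0.32 and 0.38 in KO, all above 0.

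**Figure D3:**
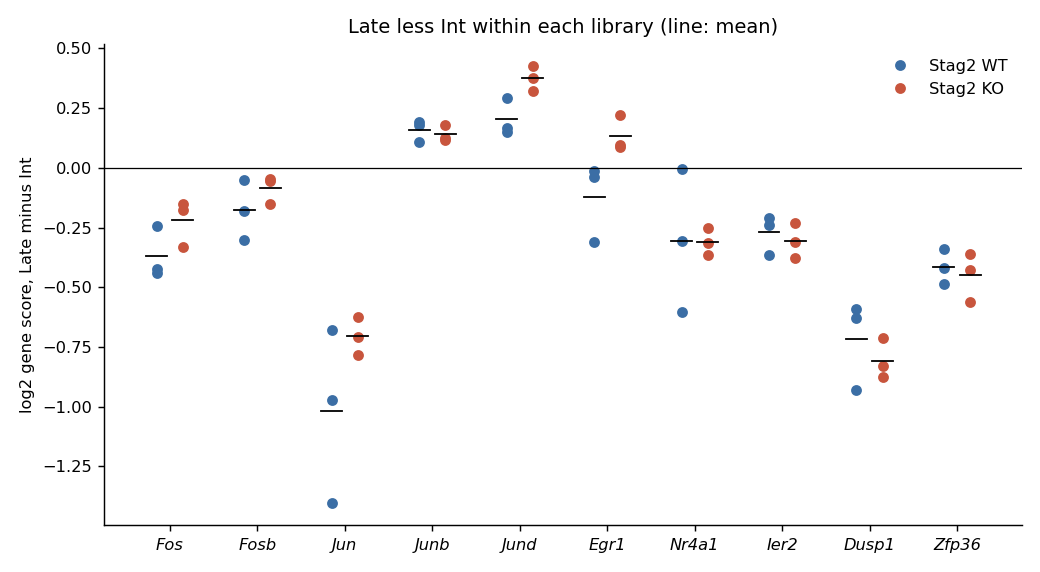
Late minus Int difference of the log2 gene score within each library, with the mean of 3 libraries as a line. Jun and Dusp1 lie lowest, Junb and Jund lie above 0 in all 6 libraries, and for Egr1 the 3 WT points lie below 0 and the 3 KO points above it.

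Clusters split the genotypes within a class. Late nuclei fell almost wholly into C3, of which 0.740% were KO, and C2, of which 97.4% were KO. Among Int nuclei C9, C11 and C6 came mainly from WT libraries and C8 and C10 from KO libraries, while C5 held both (73.0% KO) and C7 held the Early nuclei. The clusters may reflect the genes compared, so levels across them are given as a description over libraries with at least 50 nuclei.

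Fos was highest in the Early cluster C7, at 154 and 158 in WT replicates 1 and 2 and 189 in KO replicate 1, the libraries with enough nuclei there. In the WT clusters of Int it was 86.5 ± 5.69 (SD, n = 3) in C9, 57.3 ± 1.01 in C11 and 59.3 ± 9.86 in C6, and in Late cluster C3 it was 51.1 ± 1.61. In the KO clusters it was 118 ± 1.42 in C8, 103 ± 1.58 in C10 and 92.0 ± 1.59 in C2. The means of these 3 KO clusters were above those of the 4 WT clusters, though libraries of C2 (90.9 to 93.9) and of C9 (80.6 to 92.0) overlapped. The 58 to 68 WT nuclei per library in C2 scored 33.6, 66.0 and 67.3, below the KO nuclei of that cluster but from few nuclei.

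The other members had other orders. Egr1 had similar scores in C9 (243 ± 10.6) and C8 (248.6 ± 2.85), which do not differ beyond their spread, but stood at 151 ± 6.56 in C11 against 208 ± 15.8 in C10, and at 158 ± 7.86 in C3 against 246 ± 3.88 in the KO nuclei of C2. Jun was highest in C7 (157 and 155.5 in WT, 121 in KO). In the WT clusters it was 77.0 ± 15.4 in C9, 30.9 ± 4.47 in C11, 26.4 ± 4.70 in C6 and 19.7 ± 2.31 in C3. Among KO nuclei it was 39.1 ± 2.82 in C8, 22.99 ± 0.59 in C10 and 18.4 ± 2.37 in C2. In C5 it was 59.9 ± 11.4 in WT nuclei and 30.35 ± 5.48 in KO nuclei. Dusp1 was lower at both ends than in the Int clusters: 233 ± 8.77 (n = 2) in WT nuclei of C7, 337 ± 5.15 in C9, 387 ± 22.2 in C11 and 231.5 ± 14.0 in C3. Zfp36 stood at 93.8 ± 6.56 in C9, 69.96 ± 5.89 in C11 and 57.1 ± 3.92 in C3, and at 120.5 ± 2.01, 108 ± 5.20 and 82.2 ± 4.45 in C8, C10 and the KO nuclei of C2.

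**Figure D4:**
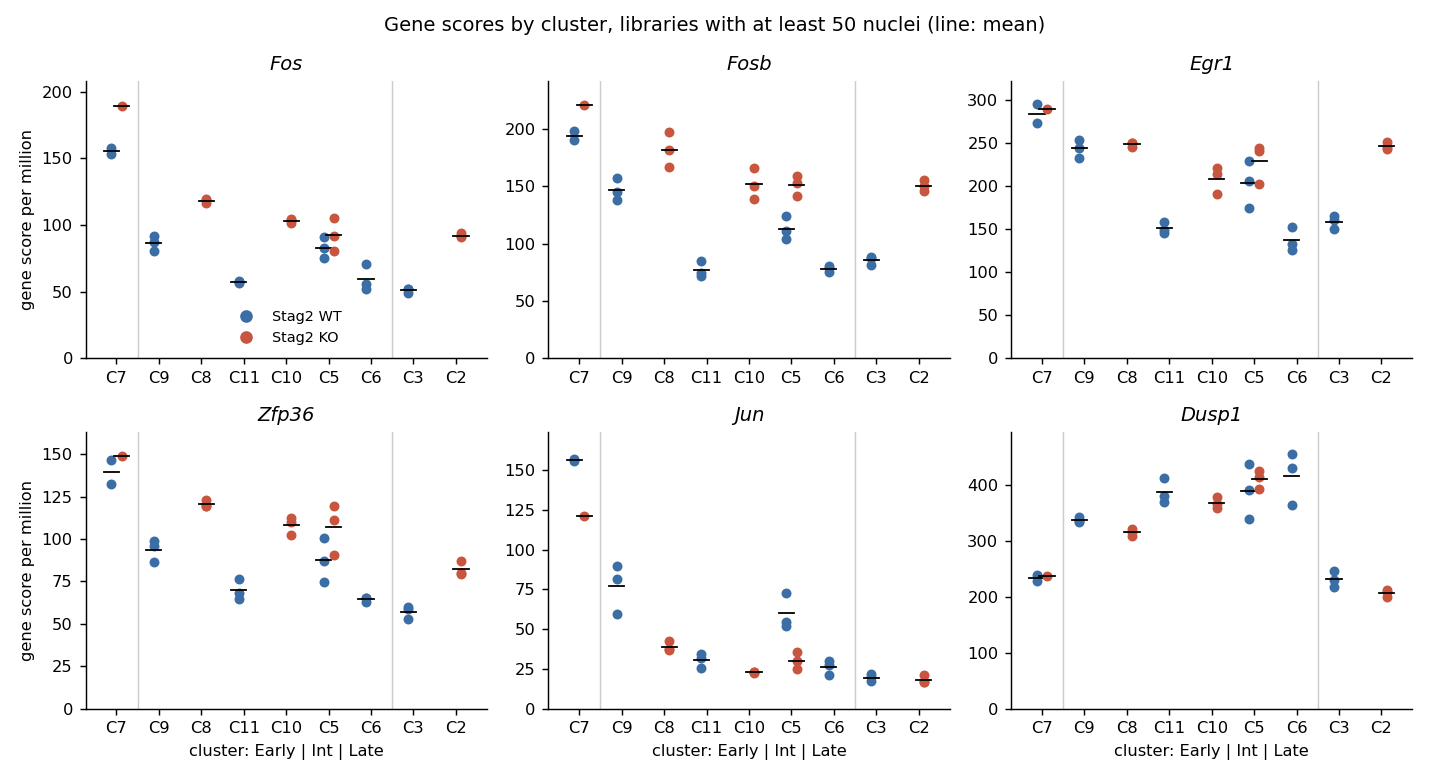
Gene scores (genes of a library sum to 1000000) by cluster for 6 genes. Each point is 1 library with at least 50 nuclei of the cluster, lines are means, and the 58 to 68 WT nuclei per library in C2 are not drawn. Fos, Fosb and Zfp36 are higher in the KO clusters C8, C10 and C2 than in the WT clusters C11, C6 and C3. The WT cluster C9 reaches the level of C2 for each of the 3. Jun is highest in C7, and its means are lowest in the Late clusters in both genotypes.

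The mix of clusters differed among the WT libraries of Int. C9, where Jun was high, made up 24.15% and 29.96% of Int nuclei in WT replicates 1 and 2 and 12.8% in WT replicate 3, the WT library with the lowest Jun score. C6, where Jun was 26.4 ± 4.70, made up 22.0%, 22.4% and 39.3%. Within these clusters too, WT replicate 3 had the lowest Jun score of the WT libraries. The scores were 81.5, 89.55 and 59.9 in C9, 34.6, 32.05 and 25.9 in C11, and 27.8, 30.3 and 21.2 in C6. In C5 it was not the lowest (52.1, 73.0 and 54.6). The part of the cluster mix in the Jun difference was not tested.

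C2 and C5 had at least 50 nuclei in every library. C2 held only 58 to 68 nuclei per WT library and was not tested. There Fos, Fosb, Egr1, Zfp36, Junb and Ier2 were higher in KO with no overlap, such as Fosb at 98.0, 51.8 and 56.1 in WT and 155.5, 150.1 and 145.9 in KO. Jun, Jund, Dusp1 and Nr4a1 overlapped in C2. How many of all genes did not overlap in C2 was not computed. C5 had both genotypes well represented and was tested. The Int nuclei of C5 numbered 143, 224 and 261 in the WT libraries and 520, 590 and 567 in KO. They made up 6.4%, 8.7% and 6.5% of Int nuclei in the WT libraries and 21.9%, 28.9% and 23.6% in KO. C5 was also shallow, with a median of 4716.5 fragments per nucleus, below the medians of Int nuclei in every library. There Jun fell by 0.95 ± 0.19 on the log2 scale (adjusted p = 0.0420, limma), and it was the 1 member past the threshold, where 0.416% of 19454 genes were higher and 0.463% lower. Jun scored 52.1, 73.0 and 54.6 in the WT nuclei of C5 and 30.1, 35.95 and 25.0 in its KO nuclei, with no overlap.

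Fos did not stand apart in C5. It scored 82.7, 75.15 and 91.0 in WT nuclei and 105.5, 92.1 and 80.15 in KO nuclei, a log2 fold change of 0.15 with a 95% interval from -0.15 to 0.45 (adjusted p = 0.70, limma), an interval that ends below the 0.65 found over all Int nuclei. Fosb was higher in each KO library (111, 124 and 104 against 159, 142 and 153), but its 0.41 did not pass (adjusted p = 0.123). Egr1 was at 0.16 (adjusted p = 0.599), Zfp36 at 0.30 (adjusted p = 0.398) and Junb at 0.22 (adjusted p = 0.513). The median SE of the members was 0.13 in C5 and 0.06 over all Int nuclei, and a difference of C5 from the other Int clusters was not tested.

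Genes around the members were compared because cohesin acts over distance and because gene scores of neighbours can share fragments. Of genes tested whose start lay within 100 kb, Fos had 1, Tmed10 at 99.2 kb, which was not called (0.0073 in Int and 0.10 in Late). Beside the counts of neighbours, 12.7% of all genes were higher and 7.10% lower in Int, and 32.9% and 18.5% in Late. Fosb had 11, of which 5 were higher in Int and 7 in Late and 0 were lower. The nearest, Rtn2 at 27.4 kb, had log2 fold changes of 0.18 in Int (adjusted p = 0.0515) and 0.29 in Late (adjusted p = 0.00238, limma), and Ercc1 at 35.0 kb on the other side, named after its values were seen, had 0.76 and 0.79, about the size of Fosb itself.

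Neighbours of the other members are given by count, with the nearest by name. The shares of all genes beside them were again 12.7% higher and 7.10% lower in Int, and 32.9% and 18.5% in Late. Egr1 had 4 such neighbours, 2 of them higher in each class, and the nearest, Reep2 at 20.6 kb, rose by 0.46 in Int and 0.40 in Late. For Zfp36, 1 of 11 neighbours was higher in each class: Plekhg2, the nearest at 6.57 kb, rose by 0.37 and 0.43. Whether the 2 share fragments was not tested. Junb had 18, of which 1 was higher in Int and 3 higher and 4 lower in Late. Its nearest, Prdx2 at 9.13 kb, fell by 0.15 in Late (adjusted p = 0.00287, limma), opposite to Junb. Jund, which did not pass, had 6 higher of 13 in Int and 8 of 13 in Late, and Ier2 had 3, of which 2 were lower in Int and 3 in Late, its nearest being Nacc1 (-0.14 and -0.15). For Nr4a1, 2 of 7 neighbours were higher in Int and 4 of 6 in Late, with Atg101 the nearest (0.20 and 0.13). Jun had 1 neighbour, Mysm1, called higher in Late (0.20, adjusted p = 0.0354), and Dusp1 had 2, of which the nearest, Ergic1, was not called (-0.05 and 0.04). The other, Neurl1b at 93.5 kb, named after its values were seen, rose by 0.91 in Int and 0.72 in Late.

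**Figure D5:**
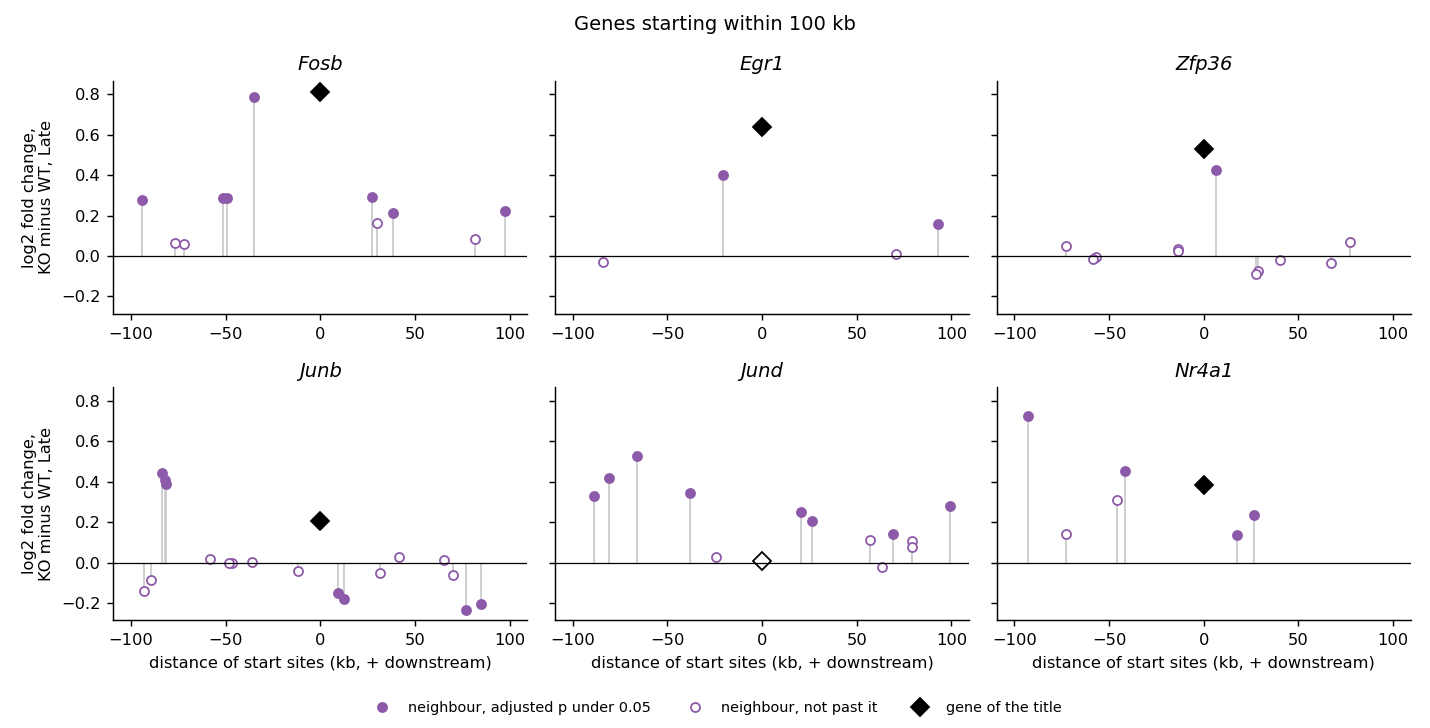
Log2 fold change of KO over WT in Late nuclei for genes starting within 100 kb of 6 members, against the distance between start sites along the strand of the member. The diamond is the member itself and filled symbols have an adjusted p under 0.05. Around Fosb 7 of 11 neighbours are filled and above 0, while around Zfp36 the nearest gene alone is.

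Genes whose scores followed the members most closely over the 12 library and class values, and that lay more than 1 Mb away, were named for 3 members as a description. For Fos they were Uvrag, Slc25a33 and Rhob (Pearson r of 0.993, 0.992 and 0.992). For Jun they were Atp6ap1l, Mapt and Mettl8 (0.979, 0.976 and 0.972), and for Egr1 Madd and Mir802 (0.983 and 0.979). These values share libraries, genotype and class.

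The rest of the pathway was compared by lists. Of 18 other AP-1 and related bZIP genes tested in Int, 4 were higher and 2 lower in KO, and in Late 8 of 16 were higher and 3 lower, with median log2 fold changes of 0.09 and 0.24. Beside them, 12.7% of all genes were higher and 7.10% lower in Int, 32.9% and 18.5% in Late, and the all-gene medians were 0.06 and 0.05. Atf3, a stress-induced bZIP gene that dimerises with Jun, rose from 17.1 ± 1.48 (SD, n = 3) to 28.0 ± 1.44 in Int (0.69, adjusted p = 2.46e-05, limma) and from 12.2 ± 0.72 to 20.4 ± 0.26 in Late. Fosl1, which encodes the Fos relative Fra-1, rose by 0.48 and 0.47, and Batf2 by 0.43 and 0.34. In Late, Atf3, Fosl1 and Batf2 lay in the quartile of scores from 11.7 to 34.8, where 44.65% of genes were higher and 9.85% lower. Nfe2l2, the regulator of the oxidative stress response, fell by 0.16 in both classes.

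Of 41 other immediate early genes tested in Int, 13 were higher and 4 lower, and in Late 17 of 37 were higher and 4 lower, with medians of 0.16 and 0.13 beside the same background. The largest changes by the rule for naming genes were in Rhob, an inducible small GTPase gene, which rose from 18.2 ± 3.27 to 37.1 ± 4.25 in Int (0.999, adjusted p = 2.06e-07, limma) and from 9.61 ± 0.76 to 28.4 ± 1.13 in Late (1.47). Csrnp1 rose by 0.78 and 0.63 and Cited2, which encodes a partner of the coactivator p300, by 0.75 and 1.37. In Late, Csrnp1 had low scores (6.45 in WT and 10.5 in KO), in the quartile where 57.3% of genes were higher. Rhob and Cited2 lay in the Late quartile where 44.65% were higher. Values of the list genes under other scalings are not given here. Klf6, a zinc finger factor gene, rose from 74.4 ± 7.23 to 123 ± 3.36 in Int (0.73) and from 106 ± 8.93 to 174 ± 3.40 in Late (0.71).

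Of 30 kinases and factors upstream of the response, 2 were higher and 2 lower in Int, and 8 were higher and 7 lower in Late, with medians of -0.01 and -0.02. The shares over all genes were those given for the AP-1 list, 12.7% and 7.10% in Int and 32.9% and 18.5% in Late, with medians of 0.06 and 0.05. No test compared the lists with each other or with other genes. Srf, which encodes serum response factor, rose by 0.39 in Int (adjusted p = 9.23e-07, limma) and 0.31 in Late. Dusp10, a phosphatase of the stress kinases, rose from 62.4 ± 1.79 to 87.5 ± 5.46 in Int (0.48) and by 0.68 in Late. The kinase gene Mapk9 fell by 0.18 in both classes, and Hras, a switch upstream of MAP kinases, fell by 0.16 in Int and 0.13 in Late.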

How the data were processed

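Gene scores are a signal that the authors deposited per gene and nucleus, scaled to a sum near 10000 per nucleus. Per the submitters' processing notes the build was mm10 and Cell Ranger was used; how fragments were weighted is not given in the sources used here. The deposited table of nuclei gave counts of fragments (at least 1000 per nucleus), class, cluster, library and genotype per the file headers, and a doublet enrichment score. It listed each nucleus 2 times, and 1 copy was used. No doublets were removed here: median doublet enrichment of Int nuclei was 0.667 to 0.857 in WT and 1.11 to 1.43 in KO.

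The mean over nuclei gave each library, the replicate, 1 score per gene, rescaled to a sum of 1000000. The lowest mean score kept was 5, and log2(score + 1) was compared with limma 3.58.1 in R 4.3.3 (lmFit, eBayes with a variance trend, two-sided), with Benjamini-Hochberg adjustment over all genes tested. Fold changes are on the log2(score + 1) scale, which understates changes of low scores. Early was not tested, since only 3 libraries held 50 nuclei of it. On simulated data, the fit found 77% of genes changed by 0.5 (log2) in Int (19439 genes) and 91% in Late (15798 genes). The simulated noise was normal and independent between genes, with an SD set by the score level alone. These rates hold for that setting and are not the power in these data. Tables and figures were made with pandas 2.3.3, numpy 2.4.6 and matplotlib 3.10.9 under Python 3.11.15.

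The members, gene lists and markers were chosen with earlier results of these data known. Named genes were all members, from each list up to 4 genes with the largest change in Int among those past the threshold in Int and Late in 1 direction with libraries that did not overlap, the tested neighbour nearest to each member within 100 kb, and the 3 genes most like Fos, Jun and Egr1, of which 1 is not reported here. Upstream sequences were taken from RefSeq (GRCm38.p6) and matched by symbol for 8 members.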

Additional observations from a re-analysis of the deposited data

Results flagged for a closer look

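Egr1 was the member whose Late minus Int difference had opposite signs in the genotypes. It fell from Int to Late in 3 of 3 WT libraries and rose in 3 of 3 KO libraries, and the mean difference on the log2 scale was 0.2548 higher in KO. The test of this difference over all genes did not pass (adjusted p = 0.205, limma), and without WT replicate 2, the WT library with the largest fall, the value was 0.16 (adjusted p = 0.339).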

How the results depend on the processing

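Fos, Fosb, Egr1 and Zfp36 kept their direction and their call over all nuclei and in Late nuclei under every alternative run, and in Int nuclei under every one but C5 alone and, for Egr1, median centring. Without a variance trend their adjusted p-values in Int rose to 0.00574, 0.00651, 0.0244 and 0.0101 (limma), and in Late to 7.15e-05, 8.01e-05, 0.000173 and 0.00116. Among the recomputed log2 values of single members, 614 stayed on their side of the threshold, 24 newly passed it and 18 no longer passed. No value past the threshold changed sign, but some that were not past it did, such as Ier2 in Int (-0.03, and 0.05 under quantile normalization), Dusp1 in Int (-0.09, and 0.09 in C5) and Jund in Late (0.0083, and -0.06 under median centring). The count of members called in Int was 6, with 4 under median centring, 5 without a variance trend or without WT replicate 1, and at most 7. In C5 alone, where fewer nuclei were tested, it was 1. Over all nuclei the count was 6 and ran from 5 to 8 under the alternatives, and in Late it was 7 and ran from 6 to 8. The count called for the difference between Late and Int was 0, and 1 with the variance trend on the mean level. Genes called also varied. In Int they were 5550 of 19465 under median centring and 3039 of 19387 without WT replicate 1. Over all nuclei they were 7878 of 17560 in matched nuclei and 8073 of 17747 at equal weight, where 8 members were called. In Late, 8 members were called under median centring (8601 of 15886 genes) and without WT replicate 3 (7892 of 16070). Median centring shifted the all-gene median (log2) by -0.15 over all nuclei and -0.18 in Int, and quantile normalization by -0.11 over all nuclei.

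Over all nuclei the count of all genes called was 7661 of 17682 tested. It was 4244 of 10362 with a minimum mean of 20, which cut the genes tested, and 2415 of 18859 with nuclei weighted by fragments. In Int it went from 3858 to 1921 without a variance trend, 171 in C5 and 2547 without KO replicate 1. In Late it went from 8161 of 15886 tested to 4560 of 9890 with a minimum of 20. For the difference between classes it was 35, and 6 with no filter, 120 with a pseudocount of 5, 199 after quantile normalization, 206 without a variance trend, 55 in matched nuclei and between 0 and 819 with 1 library left out, the highest without WT replicate 3. The cause of these changes was not tested.

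Over all nuclei Jun did not pass (-0.27, adjusted p = 0.0757) and did in 8 of 18 alternatives. Its values ran from -0.44 without WT replicate 3 (adjusted p = 0.00386) to -0.12 without WT replicate 2 (adjusted p = 0.379), with -0.17 without KO replicate 3 (adjusted p = 0.253). Dusp1 over all nuclei (-0.11, adjusted p = 0.122) passed in 4 of 18, among them without WT replicate 1 (-0.18, adjusted p = 0.0222), and was -0.04 without WT replicate 3 (adjusted p = 0.512). The correlations of deviations between same-numbered WT and KO libraries were -0.12, -0.27 and 0.21 over all nuclei, 0.13, -0.08 and 0.19 in Int and 0.09, 0.05 and 0.05 in Late. Not every pair was over 0.1 in any of these, and the numbers were not taken to pair the libraries. With a replicate block 7 members were called over all nuclei, 7 in Int and 7 in Late, Jun (adjusted p = 0.00736) and, in Int, Nr4a1 (adjusted p = 0.0445) being the additions, and 7470, 4527, 7982 and, for the difference, 12 of all genes.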
